A study of Mus musculus with 12 samples.

Results

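Grb10 and Cdkn1c are imprinted growth restrainers, and they were followed here with the listed neighbours in their chromosomal domains: Ddc and Cobl beside Grb10 on chromosome 11, and Phlda2, Slc22a18, Kcnq1, Nap1l4, Ascl2 and Cd81 around Cdkn1c on chromosome 7. These 10 genes were taken by name from 35975 genes with estimated counts. Grb10 and Cdkn1c were chosen by their measured difference between TKO and WT in these same libraries, so every difference from WT below is a description and carries no test. Differences between priming times within TKO were tested. On GRCm38 with the GENCODE M21 annotation, Ddc lies at chr11:11814101-11898144, Grb10 at chr11:11930508-12038683 and Cobl at chr11:12236608-12464960, all on the minus strand. The other cluster runs from Ascl2 (chr7:142966829-142969264) through Cd81 (chr7:143052739-143067934), Kcnq1 (chr7:143106362-143427042), Cdkn1c (chr7:143458339-143461050), Slc22a18 (chr7:143473736-143499334) and Phlda2 (chr7:143501545-143503150) to Nap1l4 (chr7:143513579-143549106).

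The 12 RNA libraries came from mouse primordial germ cell-like cells (PGCLCs), an in vitro counterpart of early embryonic germ cells. The starting cells were E14TG2a, a mouse embryonic stem cell line, grown with 2i and vitamin C, either WT or TKO, a line that the study is known to have made by knocking out Dnmt1, Dnmt3a and Dnmt3b, the enzymes that methylate DNA. Priming to epiblast-like cells (EpiLCs), the step before germ cell induction, lasted 40 hours in WT (WT_40h) and 40, 48 or 96 hours in TKO (TKO_40h, TKO_48h, TKO_96h). Induction followed for 4 days in aggregates given LIF, EGF, SCF, BMP8 and BMP4, the same in all groups. Each of the 4 groups had 3 libraries, labelled as biological replicates. The labels name no clone of the TKO line and do not say whether the RNA came from sorted cells or whole aggregates. WT was primed for 40 hours only, so genotype and priming time cannot be told apart when TKO_48h or TKO_96h is set against WT_40h.

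Libraries held 6570180 to 9114128 estimated counts, and levels are given as CPM, counts scaled to the same library size in every sample. The 12 PGC markers, among them Prdm1, Tfap2c, Nanos3 and Pou5f1, summed to 1110 to 1600 CPM, and none was at 0 in a whole group. Most of that sum was Pou5f1 (means of 494 CPM in WT_40h and 794 CPM in TKO_96h), Nanog and Alpl, whereas Prdm1 and Tfap2c were lower in TKO_96h (10.4 and 28.1 CPM) than in WT_40h (29.3 and 46.7 CPM). The 3 targeted Dnmt genes had fitted levels of 0.0869 to 0.328 times WT_40h in the TKO groups, lower in all 9 TKO libraries than in WT. TKO_48h replicate 1 stood apart, with 13530 genes at 10 or more counts against 14420 to 15409 in the other libraries and 14.6% of its counts in its top 10 genes against 9.18 to 12.7%. TKO_96h replicate 1 held 3.06% of its counts in Lars2 and Ccnb1ip1 against 1.3 to 1.93% elsewhere. Results that rest on these libraries are given with and without them.

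Imprinted genes are read from the copy of one parent, because DNA methylation set in the egg or sperm marks a control region on the other copy or on the same one. Grb10 encodes an adaptor protein that binds the insulin and IGF1 receptors and holds back growth. It is read from the maternal copy in most tissues and from the paternal copy, with other start sites, in neurons. In the Kcnq1 domain the control region lies inside Kcnq1 and is the promoter of the antisense RNA Kcnq1ot1, whose transcription keeps Cdkn1c, Phlda2 and other genes silent on the paternal copy. Cdkn1c encodes p57Kip2, an inhibitor of cyclin-dependent kinases. In the embryo, primordial germ cells erase these marks. The counts here carry no information on the parental copy, and Kcnq1ot1 was not analysed here.

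Because the TKO line is known to lack the enzymes that methylate cytosine in CG, the letters before the start sites are shown for the chromosome 11 genes, with every CG in capitals. DNA methylation was not measured here, and a part of these letters in the differences between groups was not tested. Whether a window lies in an imprint control region was not examined. RefSeq windows on GRCm38.p6 hold 250 bases before and 50 after a start. Of the 10 genes, 7 had such a window. The pair at Grb10 covers its upstream start, used by the transcript Grb10-201, and a downstream start, used by Grb10-203. RefSeq places the upstream Grb10 start at position 12037420, a few bases before that of Grb10-201. The Cobl window covers the start that carried nearly all its counts. The Ddc window covers the start at position 11890408, which held 77.7, 34.8 and 65% of Ddc counts in the WT_40h replicates. Another Ddc start, at position 11898144, held more in WT_40h replicate 2 (43.4%) and had a higher mean share in each TKO group. Each sequence is the part before the start, on the minus strand, written 5′ to 3′.
Grb10, upstream start, chr11:12037421-12037670: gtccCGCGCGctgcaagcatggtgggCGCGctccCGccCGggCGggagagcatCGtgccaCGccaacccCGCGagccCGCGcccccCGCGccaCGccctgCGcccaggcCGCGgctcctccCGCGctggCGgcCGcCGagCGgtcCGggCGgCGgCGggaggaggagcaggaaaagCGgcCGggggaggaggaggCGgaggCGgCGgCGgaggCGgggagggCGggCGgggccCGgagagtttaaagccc
Grb10, downstream start, chr11:12027972-12028221: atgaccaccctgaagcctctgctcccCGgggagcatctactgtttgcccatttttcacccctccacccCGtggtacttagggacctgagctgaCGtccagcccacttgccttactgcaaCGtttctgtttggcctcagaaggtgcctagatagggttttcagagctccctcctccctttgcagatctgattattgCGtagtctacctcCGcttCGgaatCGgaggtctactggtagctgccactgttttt
Cobl, chr11:12464961-12465210: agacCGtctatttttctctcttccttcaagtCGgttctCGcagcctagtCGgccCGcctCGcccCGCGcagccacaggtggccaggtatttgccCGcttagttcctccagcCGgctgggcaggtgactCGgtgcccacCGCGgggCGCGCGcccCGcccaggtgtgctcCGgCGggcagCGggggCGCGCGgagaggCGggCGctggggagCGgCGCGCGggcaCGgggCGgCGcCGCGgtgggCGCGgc
Ddc, chr11:11890409-11890658: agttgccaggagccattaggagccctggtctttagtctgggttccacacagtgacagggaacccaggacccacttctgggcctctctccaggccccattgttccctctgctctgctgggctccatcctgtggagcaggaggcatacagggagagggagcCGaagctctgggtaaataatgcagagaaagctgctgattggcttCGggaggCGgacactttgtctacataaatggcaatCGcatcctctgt

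The upstream Grb10 window was crowded with CG, and the downstream one was near the median. Over all 300 bases the upstream window held 45 CG, more than 98.1% of 32851 RefSeq windows, whose median was 7, and the downstream window held 9. The Cobl window held 42, more than 97% of windows, while the Ddc window held 5 and a second Ddc window 2. On chromosome 7, Phlda2 had 26 CG, Ascl2 23, Cd81 23 and Slc22a18 2. The letters TGCCGC, searched on both strands, occurred 1 time in the upstream Grb10 window and in 11.6% of all windows. GGGCGG, on both strands, occurred 5 times in the upstream Grb10 window, 3 times in the Cobl window and in 35.7% of all windows. Such matches describe the letters only.

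Compared per length, as TPM (a level that the authors' quantification scales to transcript length and depth), 3 of the neighbours were the most abundant. Median TPM over the 12 libraries was 90.1 for Cd81, a tetraspanin of the cell surface, 45.1 for Nap1l4, a histone chaperone, and 27.5 for Cobl, an actin nucleator. Cd81 (68.6 to 117) lay above all others in every library, whereas the ranges of Nap1l4 (24 to 53.2) and Cobl (22 to 36.5) overlapped. Cdkn1c (9.9), Grb10 (8.11), Phlda2 (6.09) and Ddc (5.64) followed with ranges that overlapped, so their order is not fixed. Ascl2 (1.15) and Kcnq1 (0.455) were low, and Slc22a18 had a median of 0.

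Grb10 was higher in every TKO library than in every WT library. It stood at 12.8, 20.6 and 20.5 CPM in the 3 WT_40h replicates, and at 62.9, 78 and 86 CPM in TKO_40h. In TKO_48h it stood at 64.9, 49.9 and 61.1 CPM, and in TKO_96h at 41.7, 43.8 and 38.6 CPM. The step from WT was thus largest at the shortest priming time and smallest at the longest, and the lowest TKO library (38.6 CPM) was still above the highest WT library (20.6 CPM). The fitted log2 difference from WT_40h was 2.08 ± 0.18 (SE, n = 3 against 3) for TKO_40h, a fold of 4.24, then 1.71 ± 0.18 for TKO_48h and 1.21 ± 0.18 for TKO_96h. Correcting for effective length, which grew from a mean of 2459 bases in WT_40h to 3440 in TKO_40h alongside the estimated mix of transcripts, lowered these to 1.44, 1.04 and 0.58. On the TPM scale WT_40h gave 6.43, 4.81 and 3.29, TKO_40h 11.5, 13.4 and 16.2, and TKO_96h 8.02, 8.23 and 6.38, so that 1 TKO_96h library lay just under the highest WT library.

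Cdkn1c was likewise above WT in every TKO library. It stood at 5.01, 6.14 and 7.46 CPM in WT_40h and at 29.7, 24.6 and 36.5 CPM in TKO_40h. In TKO_48h it stood at 34.7, 15.4 and 21.6 CPM and in TKO_96h at 20.1, 22 and 21.2 CPM. The lowest TKO library (15.4 CPM) was above the highest WT library (7.46 CPM), and the same held in TPM (2.61 to 3.98 in WT_40h, 8.98 to 21.9 in TKO). The TKO_48h replicates spread the most, with replicate 1 the highest, and the 3 TKO groups overlapped except that TKO_96h lay below TKO_40h. The log2 difference from WT_40h was 2.29 ± 0.27 for TKO_40h (4.9-fold), 1.94 ± 0.27 for TKO_48h (1.58 without TKO_48h replicate 1) and 1.77 ± 0.27 for TKO_96h (SE, n = 3 against 3).

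**Figure D1:**
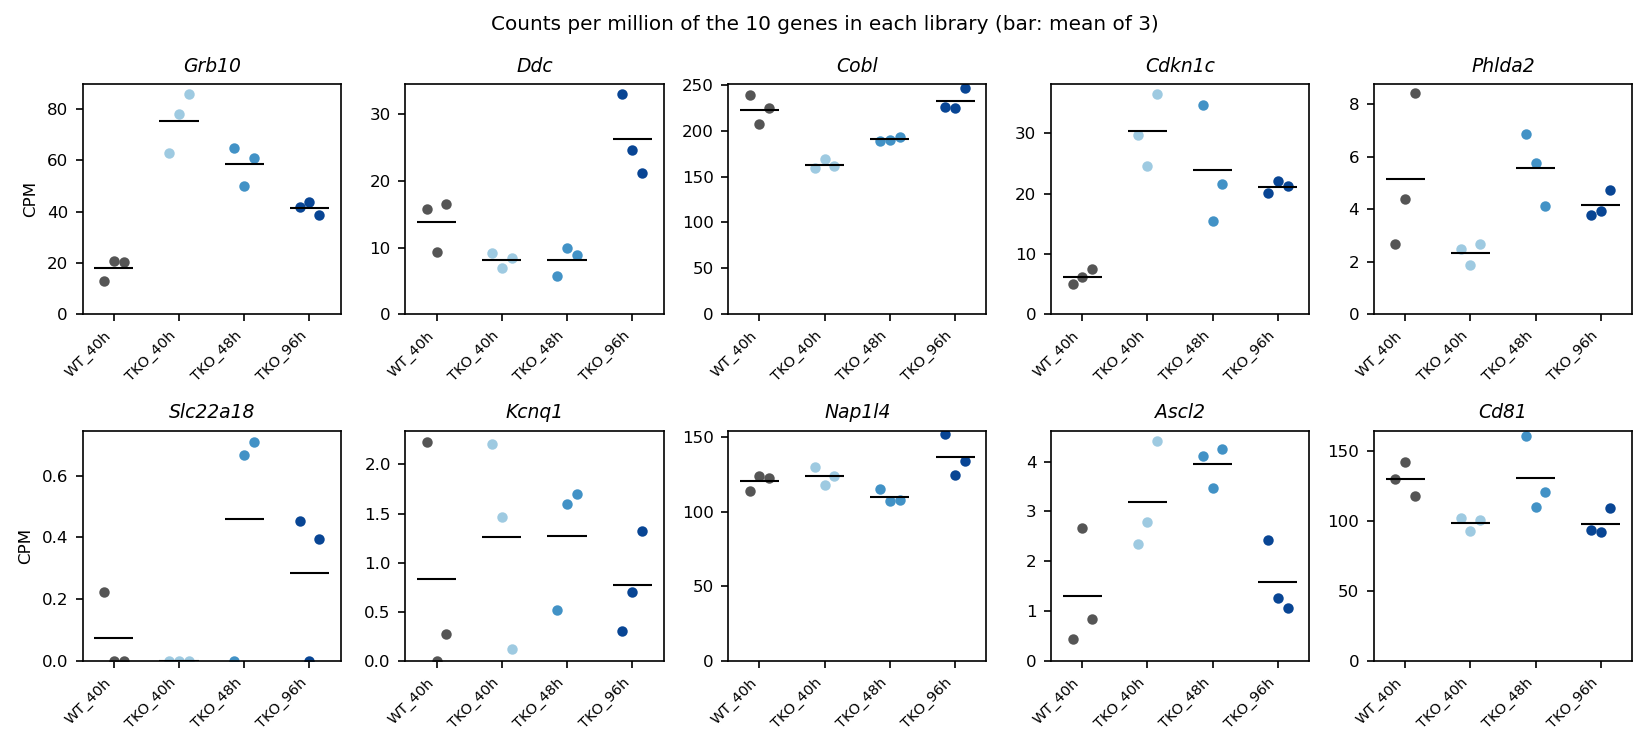
CPM (y axis, from 0, 1 scale per gene) of the 10 genes in the 3 libraries of each group (points) with the group mean (bar). Grb10 and Cdkn1c lie above all WT libraries in all TKO libraries, and Ddc is highest in TKO_96h at 21.2 to 33.1 CPM.

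None of the listed neighbours was above WT in all TKO libraries. Of the 9 genes with enough counts to be tested, 2 (Grb10 and Cdkn1c) were above all 3 WT libraries in all 9 TKO libraries, against 2.32% of 16178 genes, a count from which nothing is read because these 2 were chosen for it. None was below WT in all 9, where 2.9% of genes were. Ddc, which encodes the decarboxylase that makes dopamine and serotonin, stood at 15.8, 9.34 and 16.6 CPM in WT_40h and at 9.12, 6.91 and 8.5 CPM in TKO_40h. Cobl stood at 239, 207 and 225 CPM in WT_40h and at 159, 169 and 161 CPM in TKO_40h. Both were thus lower in TKO_40h, with no overlap, where Grb10 between them was higher: log2 differences were -0.77 ± 0.28 for Ddc and -0.46 ± 0.10 for Cobl. Cd81 was lower in TKO_40h (-0.40 ± 0.13) and TKO_96h (-0.41 ± 0.13) without overlap, and overlapped WT in TKO_48h (0 ± 0.13, 95% interval -0.27 to 0.28). Nap1l4 had differences of 0.04 ± 0.10, -0.13 ± 0.10 and 0.18 ± 0.10 in TKO_40h, TKO_48h and TKO_96h. With the effective length correction these were -0.15, -0.46 and -0.03, and in TPM its TKO_48h libraries (24, 33.9 and 28.8) lay below those of WT_40h (42.4, 49.9 and 48) without overlap. In all, 2 of the 9 genes lay wholly above WT_40h and 3 wholly below it in TKO_40h, where 25.7% of all genes did not overlap. In TKO_48h it was 3 above and 1 below (24% of all genes in either direction), and in TKO_96h 4 above and 1 below (37% of all genes, 19.4% below). Nothing is read from these counts either, since they share the WT libraries that set the choice.

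Phlda2, which limits growth of the placenta and lies near Cdkn1c in the same domain, was low and overlapped WT in every TKO group. It stood at 2.67, 4.41 and 8.43 CPM in WT_40h, at 2.49, 1.86 and 2.68 CPM in TKO_40h, at 6.87, 5.75 and 4.12 CPM in TKO_48h and at 3.77, 3.92 and 4.75 CPM in TKO_96h. The WT replicates alone spread over most of that range. Its log2 differences from WT_40h were -1.13 ± 0.49, 0.11 ± 0.47 and -0.31 ± 0.47, and the last 2 change sign, to -0.20 without WT_40h replicate 1 and to 0.23 without WT_40h replicate 3.

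Ascl2, a transcription factor of the early placenta, stood at 0.445, 2.67 and 0.829 CPM in WT_40h, at 2.35, 2.79 and 4.42 CPM in TKO_40h, at 4.12, 3.48 and 4.26 CPM in TKO_48h and at 2.42, 1.26 and 1.06 CPM in TKO_96h. Only TKO_48h lay wholly above WT_40h. The log2 difference was 1.28 ± 0.69 for TKO_40h, 1.59 ± 0.69 for TKO_48h and 0.26 ± 0.71 for TKO_96h, on 219 counts in all. Without WT_40h replicate 2, the highest WT library, these were 2.31, 2.62 and 1.30, and the last was -0.16 without WT_40h replicate 1 or TKO_96h replicate 1. Kcnq1, a potassium channel, had 94 counts over the 12 libraries and at most 2.23 CPM, and its SE of 1.17 to 1.19 against WT_40h is too wide to place it. Slc22a18, a membrane transporter, had 18 counts in all and was left out by the filter on low counts. It had no count in any TKO_40h library, where 3 counts, the limit that a count of 0 allows, are 0.351 to 0.41 CPM.

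**Figure D2:**
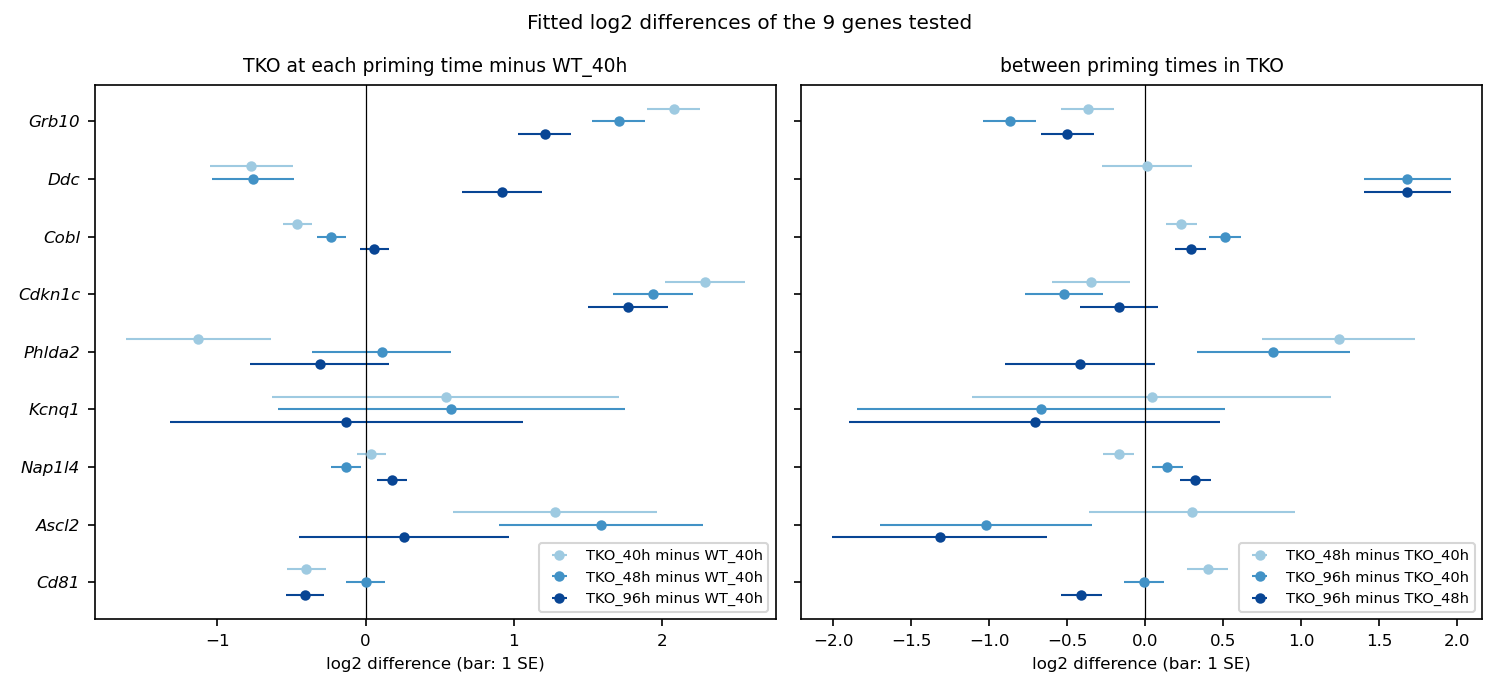
Fitted log2 differences of the 9 genes tested (x axis), with bars of 1 SE. Left, each TKO group minus WT_40h, where Grb10 (2.08, 1.71 and 1.21) and Cdkn1c (2.29, 1.94 and 1.77) stand to the right of 0. Right, differences between priming times in TKO, where Ddc stands at 1.68 in both comparisons of TKO_96h, which share the TKO_96h libraries.

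The summed levels of some marker lists of other cell types differed between groups as well. The 12 trophoblast markers had a summed level of 48.2 to 61.1 CPM in WT_40h, of 86.2 to 97.9 CPM in TKO_40h, of 60.1 to 93.7 CPM in TKO_48h and of 45.6 to 69.6 CPM in TKO_96h, with Prl3d1 at 0 in all 12 libraries, Tpbpa at 0 outside TKO_40h and Plac1 at 0 in WT_40h. In the same order of groups the 10 endoderm markers summed to 32.8 to 41.6, 51.8 to 59.1, 33.8 to 51.9 and 15.7 to 37.2 CPM, with Afp and Apoa1 at 0 in TKO_96h, and the 10 mesoderm markers to 7.34 to 8.01, 13.5 to 21.2, 14.2 to 22.4 and 11.3 to 16.1 CPM, with T at 0 in TKO_96h. The 8 neural markers summed to 149 to 165, 128 to 149, 156 to 170 and 223 to 250 CPM, with Neurog2 at 0 in WT_40h and TKO_40h and Olig2 in TKO_40h and TKO_96h. The higher neural sum of TKO_96h lay mostly in Nes (means of 51.7 CPM in WT_40h and 101 CPM in TKO_96h) and Tubb3 (21.2 and 51.3 CPM). Sox1 (47.3 and 40.2 CPM) and Pax6 (35.4 and 33.4 CPM) were lower in TKO_96h than in WT_40h. The 8 endothelial markers summed to 69.2 to 94.7 CPM over all groups, with ranges that overlapped between all groups. Most of that was Pecam1 (means of 59.8 to 72 CPM), and Emcn was at 0 outside TKO_48h. The markers of this list differed in direction. Means in WT_40h, TKO_40h, TKO_48h and TKO_96h were 0.402, 5.17, 8.94 and 3.44 CPM for Sox18 and 0.0816, 2.53, 2.33 and 0.626 CPM for Cdh5. In the same order Tek had 4.04, 8.19, 4.28 and 8.53 CPM and Esam 1.67, 2.19, 2.12 and 3.42 CPM. Tie1 had 0.949, 0.735, 0.47 and 0.335 CPM and Erg 0.733, 0.712, 1.1 and 0.427 CPM. The part of these cells in the differences of Grb10, Cdkn1c and Ddc was not tested. In bulk samples, a change in the number of cells of a type and a change in RNA per cell cannot be told apart.

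In TKO the estimated counts of Grb10 came chiefly from the upstream start, while in WT_40h the start of Grb10-202 held more in 2 of the 3 libraries. Grb10-201, whose annotated start is at position 12037401 of chromosome 11, stood at 5.04, 9.47 and 15.1 CPM in WT_40h and at 50.6, 64.6 and 62.6 CPM in TKO_40h. In TKO_48h it stood at 51, 34.7 and 55.5 CPM and in TKO_96h at 28.1, 34.8 and 31.1 CPM, above WT in all 9 TKO libraries. Grb10-202, a shorter transcript that starts inside the gene at position 11970642, stood at 5.49, 10.9 and 3.16 CPM in WT_40h and at 9.59, 11.4 and 22.3 CPM in TKO_40h, so that its groups overlapped. The log2 difference between TKO_40h and WT_40h was 2.59 ± 0.35 for Grb10-201 and 1.14 ± 0.54 for Grb10-202. Grb10-203, from the downstream start, had at most 3.94 CPM in a library.

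As a share of the estimated Grb10 counts, Grb10-201 made up 39, 46.2 and 74.4% in the WT_40h replicates and a mean of 78.5% in TKO_40h, 76.3% in TKO_48h and 76.2% in TKO_96h. The third WT replicate lay among the TKO values, which ran from 68.3 to 86.8%. In TPM the mean shares were 29.9% in WT_40h and 53.3 to 55.6% in the TKO groups. The split is an estimate: of the 31-base words of Grb10-201 and Grb10-202, only 4.1% and 1.5% occur in no other listed transcript, so few reads can tell them apart. The gene's total does not share this doubt, since none of Grb10's words occur in another gene.

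For Cdkn1c, the start at position 143461050 of chromosome 7 (Cdkn1c-201 and Cdkn1c-202) carried a mean of 85.6% of counts in WT_40h, 76.3% in TKO_40h, 79.9% in TKO_48h and 84.6% in TKO_96h. Counts there ran from 4.04 to 7.43 CPM in WT_40h and from 12.5 to 28.5 CPM in TKO, without overlap. A start inside the gene at position 143460173 (Cdkn1c-203 and Cdkn1c-205) had 0 to 1.01 CPM in WT_40h, 2.93 to 7.71 CPM in TKO_40h and 0.526 to 4.34 CPM in TKO_96h.

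**Figure D3:**
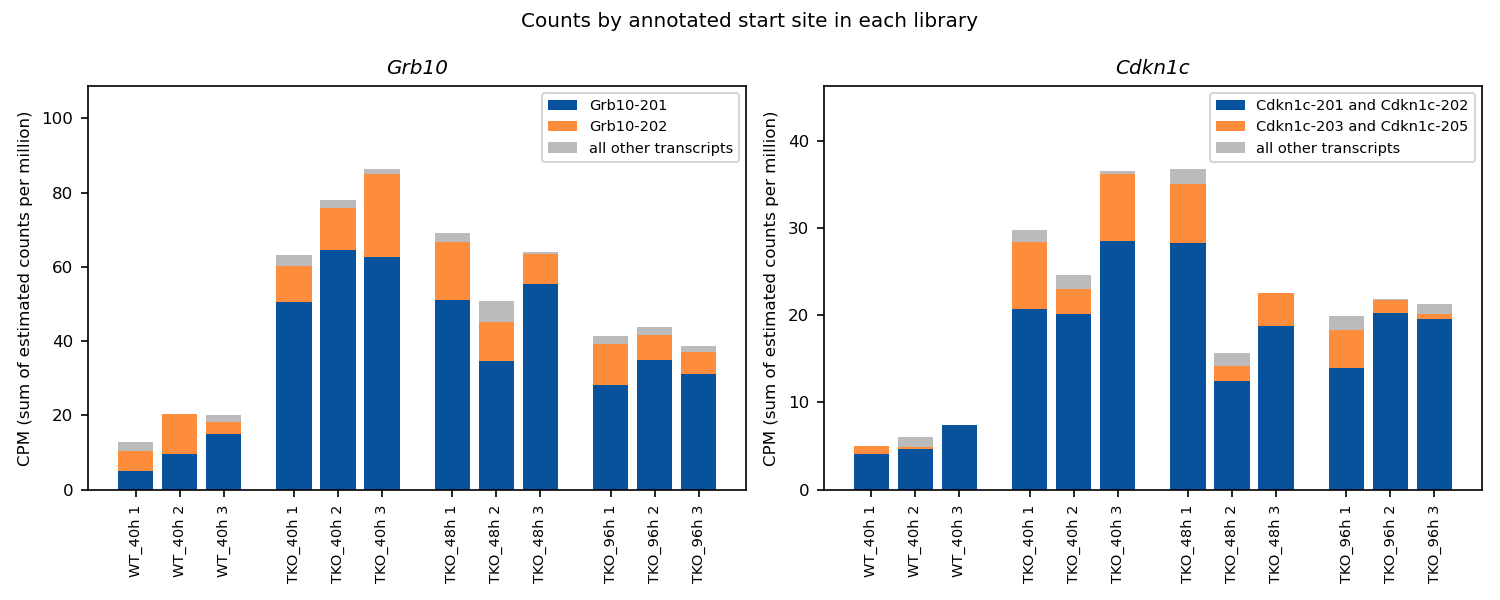
Stacked CPM (y axis, from 0) by annotated start site in each of the 12 libraries, for Grb10 (left) and Cdkn1c (right). Grb10-201 takes most of the TKO counts, at 28.1 CPM or more in each TKO library against at most 15.1 CPM in WT_40h.

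The priming comparisons ask whether these genes also depend on how long TKO cells were primed. Lengthening from 40 to 48 hours moved none of the 9 genes past the threshold (edgeR quasi-likelihood test, Benjamini-Hochberg adjusted p below 0.05 over all 16178 genes), against 5.49% of all genes. At an unadjusted p below 0.05 there were 4, a count with no share of all genes beside it, so nothing is read from it. DESeq2 called 0. The median log2 difference of the 9 was 0.04, beside 0 for all genes. Grb10 had a log2 difference of -0.37 ± 0.17 (95% interval -0.72 to -0.02, adjusted p = 0.23) and Cdkn1c of -0.35 ± 0.25 (-0.87 to 0.17, adjusted p = 0.50), which was -0.71 (adjusted p = 0.11) without TKO_48h replicate 1. Both overlapped between the groups. Cd81 had 0.40 ± 0.13 (adjusted p = 0.086), which was 0.23 without TKO_48h replicate 1, the highest library at 161 CPM. Phlda2 was higher in all 3 TKO_48h libraries than in TKO_40h, with a log2 difference of 1.24 ± 0.49 that did not pass (adjusted p = 0.16). Cobl, Phlda2 and Cd81 lay wholly above TKO_40h and Nap1l4 wholly below, 4 of 9 where 24% of all genes did not overlap.

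At 96 hours the Grb10 domain had changed in both directions. Of the 9 genes tested, 3 were called between TKO_96h and TKO_40h, against 12.1% of all genes, and they were the 3 genes of the Grb10 domain. Ddc rose from 9.12, 6.91 and 8.5 CPM to 33.1, 24.6 and 21.2 CPM, a 3.21-fold change (log2 difference 1.68 ± 0.28, 95% interval 1.1 to 2.27, adjusted p = 0.00048). Cobl rose from a mean of 163 to 232 CPM, 1.43-fold (0.51 ± 0.10, 0.31 to 0.71, adjusted p = 0.0013). Grb10 fell to 0.547 times its TKO_40h level (-0.87 ± 0.17, -1.23 to -0.52, adjusted p = 0.0018). Grb10 was chosen partly by its high level in the TKO_40h libraries, which favours a fall from them. Its p-value can therefore not be read as that of a gene chosen without them. The median over the 9 genes was -0.01, beside 0 for all genes. Each of these 3 had no overlap between groups, with 3 libraries against 3, and each kept its call and direction under all 13 alternatives, among them leaving out TKO_96h replicate 1.

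None of the 6 tested genes of the Kcnq1 domain was called between TKO_96h and TKO_40h by edgeR or by DESeq2, and none had an unadjusted p below 0.05 in edgeR. Cdkn1c was lower in all 3 TKO_96h libraries (log2 difference -0.52 ± 0.25, 95% interval -1.05 to 0) and did not pass (adjusted p = 0.20). In all, 5 of the 9 genes did not overlap between these groups, where 32.2% of all genes did not, and the 2 lower ones were Grb10 and Cdkn1c, where 16.9% of all genes lay wholly lower. Phlda2 (0.82 ± 0.49, adjusted p = 0.32) and Ascl2 (-1.02 ± 0.68, adjusted p = 0.39) had wide intervals. Nap1l4 (0.14 ± 0.10, -0.07 to 0.36) and Cd81 (-0.01 ± 0.13, -0.28 to 0.27) had the narrowest intervals of the 6. Whether Grb10 and Cdkn1c differ in their response to priming was not tested.

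Between TKO_96h and TKO_48h, 5 of 9 genes were called against 19.5% of all genes, and the median of the 9 was -0.41, beside 0.01 for all genes. DESeq2 also called 5. Ddc stood at 5.67, 10 and 8.81 CPM in TKO_48h and again rose, 3.19-fold (1.68 ± 0.28, adjusted p = 3e-04), under every alternative. The other 4 calls were near the threshold. Grb10 fell (-0.50 ± 0.17, adjusted p = 0.046) and Cd81 fell (-0.41 ± 0.13, adjusted p = 0.035), while Cobl (0.29 ± 0.10, adjusted p = 0.041) and Nap1l4 (0.32 ± 0.10, adjusted p = 0.038) rose. Without TKO_48h replicate 1 the calls of Grb10 (adjusted p = 0.14), Cd81 (0.20) and Cobl (0.06) ended, and Cd81 dropped to -0.23. Without TKO_96h replicate 1 Ddc alone was called. Cdkn1c, at -0.17 ± 0.25 (adjusted p = 0.70), turned to 0.20 without TKO_48h replicate 1. Of the 9 genes 6 did not overlap, where 32.8% of all genes did not, and Grb10, Ascl2 and Cd81 were the 3 that lay wholly lower, where 17.1% of all genes did. Ddc, Cobl and Nap1l4 were the 3 that lay wholly higher, where 15.6% of all genes did.

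The comparisons with 40 hours share the TKO_40h libraries, which also entered the comparison with WT, so a low Ddc or high Grb10 in those 3 libraries bears on each of them. Grb10 and Cdkn1c were chosen by that comparison with WT, which favours a fall of both from TKO_40h. Both comparisons of TKO_96h with another TKO group share the TKO_96h libraries, so a high Ddc there bears on both. For Ddc the TKO_96h libraries (21.2 to 33.1 CPM) lay above WT_40h too (9.34 to 16.6 CPM), with a log2 difference of 0.92 ± 0.27. Cobl in TKO_96h (226, 225 and 246 CPM) was back at its WT level (0.06 ± 0.10, 95% interval -0.14 to 0.26). Grb10 and Cdkn1c in TKO_96h were not.

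At the level of single transcripts, none of 32 tested transcripts of these genes (of 66 listed) was called by edgeR in any priming comparison, where 0.072, 0.524 and 1.2% of 45827 transcripts were called at 48 against 40, 96 against 40 and 96 against 48 hours. At an unadjusted p below 0.05 there were 4, 3 and 3, counts with no share of all transcripts beside them. Grb10-201 had a log2 difference of -0.92 ± 0.33 between 40 and 96 hours (adjusted p = 0.42), and Ddc-206 had 2.07 ± 0.93 (adjusted p = 0.56). The Ddc counts of TKO_96h were spread over several starts that differed between replicates, so no single start could be named for the rise of the gene. By the estimated split, part of them lay in Ddc-206 (mean of 8.37 CPM) and Ddc-208 (6.39 CPM), which are not annotated as protein-coding. The protein-coding Ddc-201 and Ddc-202 had means of 8.72 and 2.34 CPM there. Of the 31-base words of Ddc-208, 4.9% occur in other genes.

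Across libraries, Grb10 and Cdkn1c were correlated within TKO as well. Over the 9 TKO libraries, Pearson's r of log2 CPM was 0.68 and Spearman's rho 0.80. Without the 2 libraries farthest from the Grb10 median r was 0.68. Over all 12 libraries r was 0.95, but WT and TKO form separate clusters there. Grb10 was inversely correlated with its neighbours within TKO, with r of -0.84 for Ddc and -0.91 for Cobl. An r of 0.68 was not particular to Grb10 and Cdkn1c. Within TKO, r was 0.72 for Grb10 and Ascl2, 0.72 for Ddc and Nap1l4, and 0.69 for Phlda2 and Cd81 (rho 0.70, 0.58 and 0.72). The libraries of a group share their treatment, so these values describe the 9 libraries and are not tests.

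**Figure D4:**
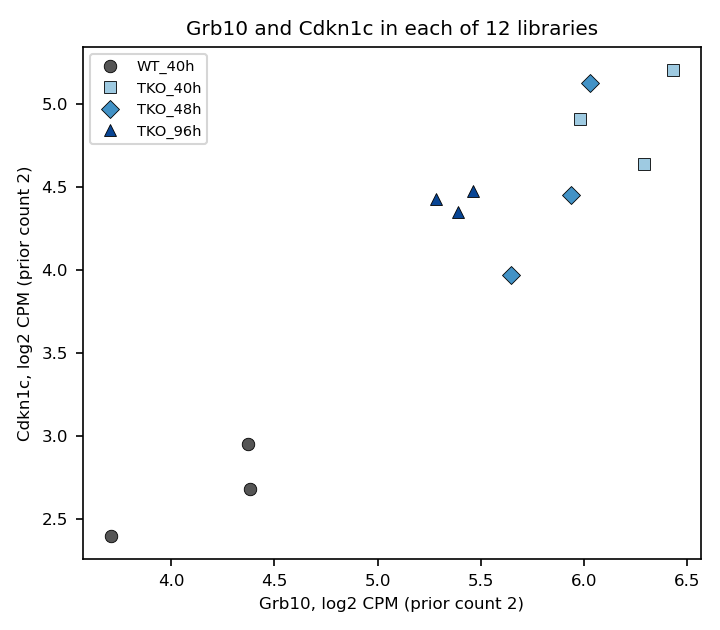
Cdkn1c (y axis) against Grb10 (x axis), both as log2 CPM with a prior count of 2, 1 point per library. The 3 WT libraries form their own cluster at the lower left, and the 9 TKO libraries give r = 0.68 among themselves.

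By correlation of log2 CPM over 12 libraries, among 10880 genes, those most like Grb10 were Nup62cl (r = 0.94), Klhl13 (0.934), Plcg2 (0.923), Efhd2 (0.912) and AU018091 (0.91). Those most like Cdkn1c were Lrrc59 (0.965), L3mbtl2 (0.942), AU018091 (0.926), Klhl13 (0.92) and Atg13 (0.912). Klhl13, a ubiquitin ligase adaptor on the X chromosome, had means of 20.7, 83.3, 67.5 and 45.3 CPM in WT_40h, TKO_40h, TKO_48h and TKO_96h. Within TKO alone its r was 0.759 with Grb10 and 0.607 with Cdkn1c. These values rest largely on the gap between WT and TKO.

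Other genes in or near the 2 domains were counted next. Of 14 such neighbours in or near the Kcnq1 domain that were analysed, 11 passed the filter on low counts. Tnfrsf22, a decoy receptor gene at the far end of the domain, fell from 66.6, 58.9 and 58.7 CPM in TKO_40h to 23.9, 25.1 and 14.5 CPM in TKO_48h (-1.54 ± 0.21, adjusted p = 0.00029) and to 24.9, 38.1 and 21.2 CPM in TKO_96h (-1.13 ± 0.21, adjusted p = 0.0011), with no overlap. Dhcr7, which makes cholesterol, fell in TKO_96h from TKO_48h (-1.04 ± 0.17, adjusted p = 2e-04) and from TKO_40h (-0.60 ± 0.17, adjusted p = 0.024, a call that ended without TKO_40h replicate 2 or 3 or TKO_96h replicate 2, at 0.11, 0.082 and 0.097). No other neighbour there was called and none was called higher by edgeR or DESeq2, with 2, 0 and 0 higher at an unadjusted p below 0.05. Of all genes, 2.57, 4.94 and 8.82% were called higher at 48 against 40, 96 against 40 and 96 against 48 hours. In the same order, 2.92, 7.2 and 10.7% of all genes were called lower. Without TKO_48h replicate 1, 2 neighbours in place of 1 were called lower at 96 against 48 hours. Of 5 neighbours of the Grb10 domain 3 were tested, and Fignl1, a DNA repair ATPase, rose in TKO_96h from TKO_40h (0.41 ± 0.12, adjusted p = 0.035), a call that ended without TKO_96h replicate 1 (0.11) or 2 (0.13) or TKO_40h replicate 1 (0.10) or 2 (0.13). In the other priming comparisons none of the 3 was called by edgeR or DESeq2, or had an unadjusted p below 0.05.

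Some genes of an insulin and IGF signalling list, which also holds proteins that bind IGFs outside the cell, were called lower after long priming. A change in signalling itself was not tested. Of 29 insulin and IGF signalling genes, all tested, 0 were called higher and 7 lower in TKO_96h against TKO_40h, where 7.2% of all genes were called lower. Against TKO_48h 0 were called higher and 12 lower, where 10.7% of all genes were called lower. None was higher at an unadjusted p below 0.05 in either comparison, and DESeq2 called 0 higher, with 8 and 12 lower. The median log2 difference was -0.25 and -0.37, beside 0 and 0.01 for all genes. Igfbp2, which binds IGFs outside the cell, fell from means of 361 CPM in TKO_40h and 434 in TKO_48h to 128 CPM in TKO_96h (-1.50 ± 0.14, adjusted p = 3.6e-07, and -1.76 ± 0.14, adjusted p = 2.6e-08). Insr, the insulin receptor, fell by 0.97 ± 0.15 against TKO_40h (adjusted p = 0.00022) and by 1.29 ± 0.15 against TKO_48h (adjusted p = 5.8e-06). Without TKO_96h replicate 1 the lower counts were 5 and 10. With the effective length correction, under which fewer of all genes were called too, they were 3 and 7. Insr was then no longer called (-0.30, adjusted p = 0.58, and -0.52, adjusted p = 0.23). Between 40 and 48 hours Igfbp4 alone was called and rose (0.99 ± 0.20, adjusted p = 0.0071), a call the length correction ended (0.45, adjusted p = 0.55).

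Of the 6 other inhibitors of cyclin-dependent kinases, none was called between 40 and 48 or between 40 and 96 hours by edgeR or DESeq2, with 2 and 0 at an unadjusted p below 0.05. Cdkn1a, which encodes p21, and Cdkn1b, which encodes p27, fell in TKO_96h against TKO_48h (-0.58 ± 0.15, adjusted p = 0.0085, and -0.56 ± 0.18, adjusted p = 0.03). Both calls ended with the length correction (adjusted p = 0.063 and 0.11) and without TKO_96h replicate 2 (0.053 and 0.11), and that of Cdkn1b also without TKO_96h replicate 3 (0.11) or TKO_48h replicate 2 (0.055) or 3 (0.087). The next list held 14 cell cycle genes, namely cyclins, their kinases, pocket proteins and Pcna. Of these, 3 were called higher and 2 lower in TKO_96h against TKO_40h, and 5 higher and 2 lower against TKO_48h. Of all genes, 4.94% were called higher and 7.2% lower in the former comparison, and 8.82% and 10.7% in the latter. Between 40 and 48 hours none was called by edgeR or DESeq2, with 0 higher and 4 lower at an unadjusted p below 0.05. Pcna, the sliding clamp of DNA replication, rose from a mean of 131 CPM in TKO_48h to 219 CPM in TKO_96h (0.74 ± 0.12, adjusted p = 0.00017). Ccnd2, a D-type cyclin, fell from 38.9 CPM in TKO_40h and 33 in TKO_48h to 4.61 CPM (-3.07 ± 0.28, adjusted p = 3.7e-07, and -2.82 ± 0.28, adjusted p = 8.8e-07), but with the length correction it was not called (-0.54, adjusted p = 0.76) and turned in sign against TKO_48h (0.27, adjusted p = 0.87). Without TKO_96h replicate 1, 0 were called higher and 1 lower against TKO_40h, and 3 higher and 1 lower against TKO_48h.

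Genes that protect imprints or silence the Kcnq1 domain were counted last. Of 15, 0 were called higher and 3 lower in TKO_48h against TKO_40h, in edgeR and DESeq2 alike, with 0 higher at an unadjusted p below 0.05, where 2.92% of all genes were called lower. The counts were 4 higher and 2 lower in TKO_96h against TKO_40h, and 9 higher and 1 lower in TKO_96h against TKO_48h. Over all genes, 4.94% were higher and 7.2% lower in the former, and 8.82% and 10.7% in the latter. Zfp57, which binds methylated TGCCGC at imprinted control regions, fell from a mean of 274 CPM in TKO_40h to 187 in TKO_48h (-0.55 ± 0.11, adjusted p = 0.0059) and stood at 349 CPM in TKO_96h, a rise of 0.90 ± 0.11 from TKO_48h (adjusted p = 9e-06). Zfp445, which shares that role, fell between 40 and 48 hours (-0.58 ± 0.14, adjusted p = 0.017), a call that ended without TKO_48h replicate 1 (0.068) or 3 (0.051) or TKO_40h replicate 1 (0.092). Uhrf1, which guides Dnmt1 to newly copied DNA, rose from 440 CPM in TKO_40h to 618 in TKO_96h (0.49 ± 0.10, adjusted p = 0.0028), which was not called with the length correction (adjusted p = 0.21). Dppa3, which guards the maternal genome and is also a germ cell marker, fell in TKO_96h (-1.47 ± 0.20, adjusted p = 6.5e-05, against TKO_40h and -1.35 ± 0.20, adjusted p = 9.7e-05, against TKO_48h). Without TKO_48h replicate 1, 1 was called lower between 40 and 48 hours. Without TKO_96h replicate 1, 2 were called higher against TKO_40h and 7 against TKO_48h.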

How the data were processed

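Estimated counts per transcript were deposited by the authors, not scaled to depth, with transcript lengths and TPM, which the deposited files scale to effective length and depth. The submitters' processing notes name Trim Galore 0.6.2, kallisto and the mouse build GRCm38, also called mm10. Version of kallisto, transcript set and use of strand: not given in the sources used here. Per the labels' protocols, libraries were made with a stranded total RNA kit from at least 10 ng.

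Of 119414 transcripts, 116728 matched GENCODE M21 by identifier, and 2.68 to 4.32% of counts per library were in unmatched ones. Counts were summed per gene and rounded. Genes passed filterByExpr by group (minimum count 10, total 15), which left 16178. edgeR 4.0.16 in R 4.3.3 fitted all 12 libraries with 1 mean per group, TMM factors (0.927 to 1.063) and two-sided quasi-likelihood F-tests, with genes called below an adjusted p (Benjamini-Hochberg) of 0.05. CPM use TMM library sizes, computed separately for genes and transcripts. Standard errors are the absolute log2 difference over the square root of F, and 95% intervals use the t distribution with the model's total degrees of freedom. P-values measure the spread between these libraries. Counts at an unadjusted p below 0.05 and counts by DESeq2 stand without the share of all genes, so they cannot be set against it. Transcripts whose starts lie within 300 bases were summed as 1 start site.

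The genes, gene lists and tests were chosen with earlier results of these data known. From each list, up to 2 called members per priming comparison with the smallest adjusted p are named, and for likeness the 5 genes of highest r with a mean of at least 5 CPM. Replicate numbers did not pair the libraries (correlations of same-numbered deviations -0.06 to 0.051 over 18 pairs). On simulated data the procedure was tested before use. Alternatives were DESeq2 1.42.0, an offset for effective length, RLE factors, no filter, a robust fit, a replicate block, only the groups compared, and each library left out; those for the gene lists were chosen after seeing the data. PCR copies carry no molecular identifiers, so floors cover counting error only. Kcnq1ot1 and H19 were not analysed here. Scripts used Python 3.11.15 with pandas 2.3.3 and matplotlib 3.10.9.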

Additional observations from a re-analysis of the deposited data

How the results depend on the processing

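Between TKO_96h and TKO_40h, 3 of these genes were called under every alternative. Between TKO_48h and TKO_40h the count of 0 became 1 (Cd81) with no filter on low counts and 0 to 1 when 1 library was left out. Between TKO_96h and TKO_48h the count of 5 became 3 with no filter, 1 with the effective length offset, 2 with only the groups compared, and 1 to 3 when 1 library was left out, with Ddc called each time. With the offset, 203, 826 and 1639 genes were called at 48 against 40, 96 against 40 and 96 against 48 hours, in place of 888, 1965 and 3157. With only the groups compared, 572 genes were called at 48 against 40 hours. When 1 library was left out, 338 to 1122 genes were called at 48 against 40 hours, with 556 or fewer without any library but TKO_48h replicate 2, 1251 to 1699 at 96 against 40, fewest without TKO_40h replicate 3, and 2358 to 3029 at 96 against 48. The offset lowered Grb10 to 1.44, 1.04 and 0.58 above WT_40h. The cause of these shifts was not tested.

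Outside the left-out libraries, and apart from values within 0.01 of 0, signs turned for Kcnq1 (0.35 for TKO_96h against WT_40h with a replicate block, -0.81 at 48 against 40 hours with the offset) and Cd81 (0.02 at 96 against 40 hours with the offset), and for Nap1l4 against WT_40h with the offset (-0.15 in TKO_40h and -0.03 in TKO_96h). When 1 library was left out, values ran from -0.17 to 0.21 for Ddc and -0.51 to 0.72 for Kcnq1 at 48 against 40 hours, from -1.29 to 0.01 for Kcnq1 and -0.09 to 0.04 for Cd81 at 96 against 40, and from -0.41 to 0.20 for Cdkn1c at 96 against 48. Against WT_40h they ran from -0.13 to 3.04 for Kcnq1 in TKO_40h, -0.20 to 0.66 for Phlda2 in TKO_48h, and -0.63 to 0.23 for Phlda2, -0.16 to 1.30 for Ascl2 and -0.74 to 2.37 for Kcnq1 in TKO_96h. The replicate block left the counts of these genes called at 0, 3 and 5 and moved no count of calls by over 1.5 times. Depth limits Slc22a18, Kcnq1 and Ascl2, with 18, 94 and 219 counts in all.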

Other observations

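Beside the Grb10 domain, 2 genes chosen after their values were seen stood above WT in all 9 TKO libraries. Ikzf1, a transcription factor of lymphocytes at chr11:11685003-11772926, ran from 0.556 to 0.801 CPM in WT_40h and from 1.46 to 4.88 CPM in TKO, on 191 counts in all. Vwc2, a secreted BMP antagonist at chr11:11114223-11268931, ran from 0.133 to 0.691 CPM in WT_40h and from 0.859 to 3.72 CPM in TKO, on 161 counts in all. Ddc and Fignl1, which lie between Ikzf1 and Grb10, were lower in TKO_40h than in WT_40h, but not in all TKO groups. Ddc overlapped WT_40h in TKO_48h and lay above it in TKO_96h (log2 difference 0.92 ± 0.27). Fignl1 overlapped WT_40h in TKO_48h (-0.05 ± 0.12) and TKO_96h (0.12 ± 0.12). Across all genes tested, 2.32% stood above WT in all 9 TKO libraries. WT levels of Ikzf1 and Vwc2 lay near the floor of 3 counts (0.34 to 0.419 CPM in WT), so no fold is given.

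Some genes of the pathway lists stood above WT in all 9 TKO libraries, where 2.32% of all genes did. They were 1 of 6 CDK inhibitors (Cdkn2c), 2 of 14 cell cycle genes (Ccne1 and Cdk2) and 1 of 15 imprint upkeep genes (Uhrf1). Others stood below WT in all 9, where 2.9% of all genes did. They were 2 of 14 cell cycle genes (Ccnd2 and Rbl1) and 2 of 29 insulin and IGF signalling genes (Igf1r and Gigyf2). These are CPM not corrected for effective length, a correction that turned Ccnd2 to 0.27 between TKO_96h and TKO_48h.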
